A study of Mus musculus with 24 samples.

Results

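Immediate early and activation genes were followed in NK1.1+CD3e+ cells of the mouse liver. The set was a list of 32 gene symbols, all of which were rows of the count matrix of 24447 genes, and it was read in every cell by genotype. It held AP-1 subunits, the EGR and NR4A transcription factors, feedback phosphatases and mRNA decay factors, NF-κB components, growth and stress genes, and the surface receptor gene Cd69. The cells came from mice of 3 genotypes, which were wild type (WT), Jα18-/- (Jα18-deficient) and CD1d-/- (CD1d-deficient), all young adult and with no treatment named. The WT mice were purchased C57BL/6 mice, and the mutant lines were originally obtained from another laboratory. The first mutation removes the segment that type I NKT cells need for their T cell receptor, and the second removes CD1d, which shows lipids to NKT cells of both types. The Jα18-deficient line also lost other Jα elements, which narrows its T cell receptor repertoire, and CD1d2 was kept in the CD1d-deficient line. Livers were perfused, and the sorted cells were hand picked. Each captured molecule carried a unique molecular identifier (UMI), and 1 count stands for 1 such molecule.

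Immediate early genes are transcribed within minutes of a signal from promoters that need no new protein. In T cells, a T cell receptor signal raises FOS and JUN proteins, which pair into AP-1, together with EGR and NR4A factors, and opens the way to cytokine genes such as Ifng and Il4 and chemokine genes such as Ccl3 and Ccl4. Feedback members of the same wave, such as the phosphatases DUSP1 and DUSP2 and the inhibitor IκBα (Nfkbia), then shut the signal down. NKT cells are known for fast release of cytokines from transcripts that are already present at rest. Several of these genes also respond to stress and to the handling of cells.

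The labels list 24 libraries, 8 per genotype, but a cell's name gives its genotype and a number only. The cells of a genotype therefore formed 1 pool without replicates, and no test was made between genotypes. The pools held 623 WT, 725 Jα18-deficient and 387 CD1d-deficient cells with medians of 40467, 46670 and 13508 UMIs per cell. Levels are given as UMIs per 1000000 UMIs of the pool (CPM), with exact Poisson 95% intervals. Shares of cells with a UMI were taken after each cell was thinned at random to 10000 UMIs, which left 523, 632 and 227 cells, and have exact Clopper-Pearson 95% intervals. The intervals allow for counting error alone, and mice, libraries and cells can vary beyond them. Values given 3 in a row follow the order WT, Jα18-deficient, CD1d-deficient. Cd3d, Cd3g and Nkg7 were detected in 96.5% to 100% of the thinned cells of every pool. The genes of the sorted proteins, Cd3e and Klrb1c (NK1.1), were in 73.6% to 84.2% and 85.9% to 89.1%. Il2rb was in 92.9%, 94.6% and 84.6% and Thy1 in 66.3%, 71.2% and 55.5%, both lowest in the CD1d-deficient pool. Markers of neutrophils, endothelial cells and erythroid cells were at or near 0. Lyz2, a lysozyme gene of macrophages and monocytes, was higher, with 77.3, 14.7 and 588 CPM in the WT, Jα18-deficient and CD1d-deficient pools. At least 1 of 6 hepatocyte genes had a UMI in 6.12%, 10.9% and 12.3% of thinned cells. At least 1 of 4 B cell genes had one in 3.06%, 3.48% and 3.96%. The hepatocyte gene Cyp2e1 was at 3.78, 12.9 and 13.5 CPM and the B cell gene Cd79b at 4.72, 10.6 and 13.2 CPM.

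The stretches of 250 bases before the transcription start are shown for Fos, Jun and Nfkbid, the 3 members past a 2-fold difference from the WT pool among the 23 members that passed a filter on low counts (below). The sequences are those of RefSeq (GRCm38.p6), and each matched 1 place in NCBIM37, the build of the deposited data (mm9), whose coordinates are given. Capitals mark matches on either strand to the CRE (TGACGTCA), the AP-1 site (TGANTCA), the EGR site (GCGNGGGCG), the CArG box or the kappa B motif.
Fos, chr12:86814590-86814839, plus strand: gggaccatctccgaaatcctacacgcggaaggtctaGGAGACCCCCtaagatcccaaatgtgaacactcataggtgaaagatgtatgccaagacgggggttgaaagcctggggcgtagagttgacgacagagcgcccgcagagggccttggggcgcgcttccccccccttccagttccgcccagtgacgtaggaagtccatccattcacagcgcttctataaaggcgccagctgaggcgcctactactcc
Jun, chr4:94718914-94719163, minus strand: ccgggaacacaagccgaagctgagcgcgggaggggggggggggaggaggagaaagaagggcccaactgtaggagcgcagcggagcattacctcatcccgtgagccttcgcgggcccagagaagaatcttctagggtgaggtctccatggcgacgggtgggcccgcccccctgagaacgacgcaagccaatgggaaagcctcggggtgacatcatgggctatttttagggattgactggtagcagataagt
Nfkbid, chr7:31207175-31207424, plus strand: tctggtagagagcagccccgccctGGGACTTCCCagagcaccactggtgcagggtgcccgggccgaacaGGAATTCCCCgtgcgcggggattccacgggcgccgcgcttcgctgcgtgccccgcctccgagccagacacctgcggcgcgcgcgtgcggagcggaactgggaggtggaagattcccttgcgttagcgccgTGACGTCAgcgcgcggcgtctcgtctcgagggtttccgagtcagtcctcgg

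The Fos stretch held 1 kappa B match at -214 from the start. The Jun stretch held no match to these letters, and its gene overlaps BC042782 on the other strand, so that reads of the pair could be told apart only if the counting used strand. The Nfkbid stretch held kappa B matches at -226 and -181 and a CRE at -51. It lies inside the annotated span of the gene, and was taken of 3 RefSeq windows for its matches. Of the 26 members with a RefSeq window from 250 bases before to 50 after the start, 10 held a kappa B match in any of their windows, against 9.55% of all 27025 genes with a window, and 8 held an EGR match, against 6.27%. The CArG box was in 3 of the 26 (Egr2, Dusp5 and Zfp36) against 1.81% of genes, and the CRE in 3 (Dusp1, Nfkbid and Btg2) against 2.03%. The AP-1 letters were in Zfp36l1 and Tnfaip3 alone, against 8.97% of genes. A match here is a description of letters and not a site of binding.

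All 32 members had a UMI in every pool, and they fell into steadily detected and rarely detected genes. The antiproliferative gene Btg1 was detected in 81.1%, 84.8% and 86.3% of the cells. Its relative Btg2 was detected in 77.8% (74.0 to 81.3), 65.2% (61.3 to 68.9) and 63.4% (56.8 to 69.7). At the other end Fosb, Atf3, Egr2, Egr3, Nr4a2, Nr4a3 and Dusp5 had a UMI in under 3% of the cells of any pool. The 32 genes together made up 3093, 3198 and 3001 CPM of the pools.

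**Figure D1:**
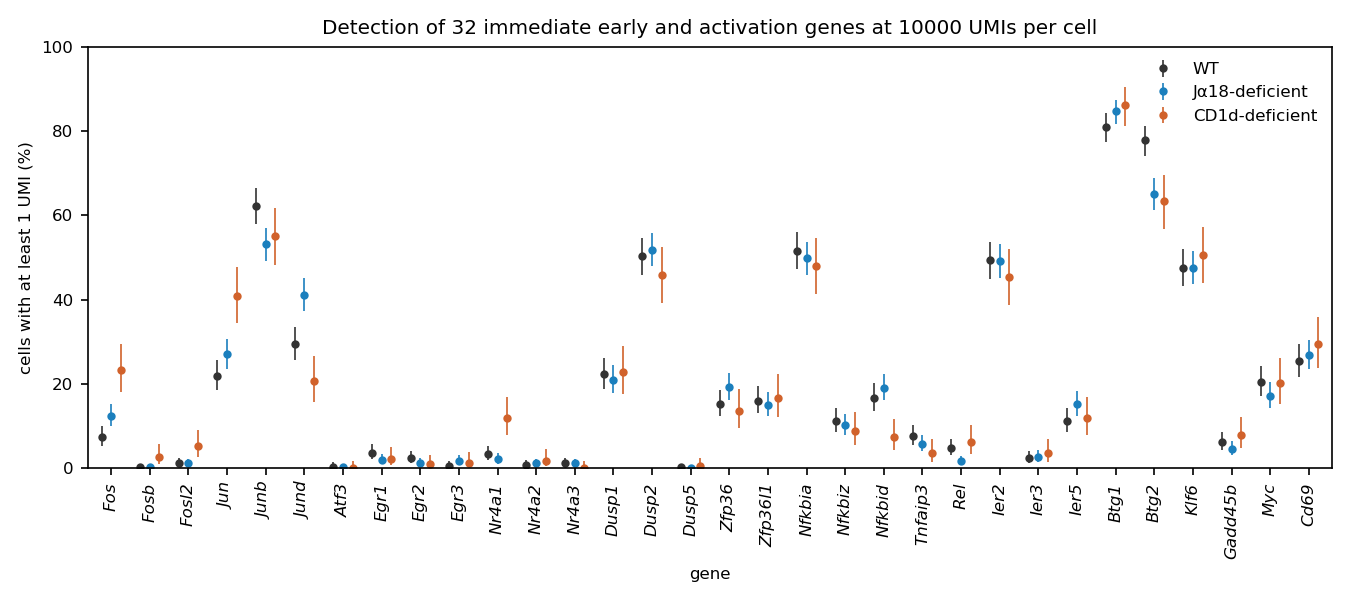
Share of cells with at least 1 UMI for each of the 32 genes at 10000 UMIs per cell. Points are WT (523 cells), Jα18-deficient (632) and CD1d-deficient (227) pools, and bars are exact 95% intervals. Fos, Jun and Nr4a1 had their highest shares in the CD1d-deficient pool, at 23.3%, 41.0% and 11.9%, and Nfkbid its lowest, at 7.49%.

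Among the AP-1 genes, Junb was the most widely detected. It was at 326, 286 and 237 CPM, and 53.2% to 62.3% of cells had a UMI. Jund, which is held to restrain growth and is expressed without a stimulus, was at 70.5, 98.7 and 65.7 CPM and overlaps Gm11175 on the other strand. Jun was at 105, 122 and 294 (285 to 303) CPM, with a UMI in 22.0%, 27.1% and 41.0% of thinned cells and 29.9%, 49.5% and 50.6% of cells before thinning. Fos was at 26.2 (24.5 to 27.9), 71.3 (69.2 to 73.5) and 55.9 (52.1 to 59.8) CPM, with a UMI in 7.46%, 12.5% and 23.3% of thinned cells and 14.0%, 26.3% and 37.5% before thinning. Both genes were lowest in the WT pool on both measures, but Fos was highest in the Jα18-deficient pool by CPM and highest in the CD1d-deficient pool by its share of cells. The other FOS genes were rare: Fosl2 was detected in 6 WT, 7 Jα18-deficient and 12 CD1d-deficient cells and Fosb in 1, 1 and 6. Atf3, a stress-induced repressor, had 78 UMIs in all, of which 96.2% lay in 10 cells.

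The EGR factors, which are read as a sign of a recent T cell receptor signal, were found in few cells with many molecules. Egr1 was at 12.9, 16.1 and 17.7 CPM, in 3.63%, 1.90% and 2.20% of cells, and 76.8% of its UMIs lay in 10 cells of the 1735. Egr2 was at 12.6, 6.12 and 8.19 CPM with 83.7% of UMIs in 10 cells, and Egr3 at 1.82, 5.97 and 0.619 CPM with 86.8%. With so few cells behind each value, the differences of these 2 genes between pools rest on single cells. Egr1 also overlaps Gm17507 on the other strand.

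The NR4A receptors are orphan nuclear receptors of the same response. Nr4a1 (Nur77) was at 7.83 (6.92 to 8.83), 7.11 (6.45 to 7.81) and 8.81 (7.35 to 10.5) CPM, levels whose intervals overlapped. It was nonetheless detected in 3.25% (1.90 to 5.15) of WT, 2.06% of Jα18-deficient and 11.9% (7.99 to 16.8) of CD1d-deficient thinned cells, so that its molecules were spread over a larger share of cells in the latter. Before thinning the shares were 13.5%, 11.6% and 22.5%. Nr4a2 and Nr4a3 had 339 and 184 UMIs in all, of which 94.4% and 87.5% lay in 10 cells.

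The feedback genes were steadier. Dusp2, a phosphatase of activated lymphocytes, was at 276, 276 and 250 CPM and in 50.3%, 51.9% and 45.8% of cells. Dusp1, which turns off MAP kinases, was at 71.5, 109 and 84.6 CPM and in 22.4%, 21.0% and 22.9% of cells. The mRNA decay factor Zfp36 (tristetraprolin) was at 45.5, 60.8 and 36.5 CPM, and its relative Zfp36l1 at 58.2, 53.4 and 63.1 CPM, with Gm17591 overlapping the latter. In none of the 4 genes did a pool differ from the WT pool by 2-fold or more. Dusp5 had 14 UMIs in all.

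Among the NF-κB genes, Nfkbid was the one that stood lowest against the WT pool. Nfkbid, which encodes the nuclear IκB protein IκBNS, was at 51.0 (48.6 to 53.4), 66.5 (64.5 to 68.6) and 14.6 (12.7 to 16.7) CPM. It was detected in 16.6%, 19.1% and 7.49% of thinned cells, and in 26.6%, 37.7% and 12.7% before thinning. Its cytoplasmic counterpart Nfkbia was at 359, 356 and 253 CPM and in 51.6%, 49.8% and 48.0% of cells. Nfkbia was thus also lowest in the CD1d-deficient pool, but by less than Nfkbid. Nfkbiz (IκBζ) was at 29.6, 19.9 and 22.9 CPM, and Tnfaip3 (A20), a ubiquitin-editing brake on the pathway, at 20.7, 14.6 and 17.7 CPM. The subunit gene Rel was at 11.6, 6.08 and 17.9 CPM, lowest in the Jα18-deficient pool and with 56.3% of its UMIs in 10 cells.

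Of the growth and stress genes, Klf6 was at 186, 230 and 246 CPM and the early response gene Ier2 at 158, 229 and 173 CPM. Both were in 45.4% to 50.7% of the cells of every pool. Myc, a driver of growth, was at 75.7, 51.8 and 74.6 CPM, and Ier5 at 29.5, 47.7 and 28.4 CPM. Gadd45b, a stress gene, was at 22.5, 23.5 and 28.4 CPM, and Ier3 at 6.33, 6.23 and 8.26 CPM. Cd69, the early activation marker that also holds lymphocytes in tissue, was at 150, 131 and 126 CPM and in 25.4% (21.8 to 29.4), 26.9% (23.5 to 30.5) and 29.5% (23.7 to 35.9) of cells. The intervals of its shares overlapped between all 3 pools.

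Which members differed between genotypes was asked next. Because each genotype was 1 pool, a fold of 2 in CPM stands in for a test, among genes that had 100 UMIs or more and were detected in no less than 5% of all cells. Of the 32 members 23 passed, and Fosb, Fosl2, Atf3, Egr2, Egr3, Nr4a2, Nr4a3, Dusp5 and Ier3 did not. Both comparisons share the WT pool. Of the 23, 1 was at least 2-fold higher with Jα18 deficiency, against 8.62% of the 7899 genes that passed, and 0 were 2-fold lower, against 3.05%. In the CD1d-deficient pool 2 were higher, against 9.77%, and 1 lower, against 8.39%. The members' median log2 ratios were 0.06 and -0.02, beside 0.12 and 0.02 over all 7899 genes. As a set, the members thus differed between pools no more often than other genes.

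The single member higher in the Jα18-deficient pool was Fos, at a log2 ratio of 1.45 (1.34 to 1.55). In the CD1d-deficient pool Fos had a log2 ratio of 1.09 (0.96 to 1.23), Jun of 1.49 (1.42 to 1.55) and Nfkbid of -1.81 (-2.02 to -1.60). Of their partners in function, Junb was at -0.46 in the CD1d-deficient pool and Jun at 0.22 in the Jα18-deficient pool. Nfkbia was lower in the CD1d-deficient pool, as Nfkbid was, but at -0.51 it was short of the fold. The intervals of Fos are too narrow as a guide, since 41.0% of its 6016 UMIs lay in 10 cells, against 18.4% for Jun and 28.5% for Nfkbid. When every cell counted equally, by the mean of the cells' CPM, the log2 ratio of Fos in the Jα18-deficient pool was 0.82 and no longer past the fold, whereas in the CD1d-deficient pool it was 1.65. From sums of thinned cells, the log2 ratio of Fos was 1.49 and 1.92 in these pools.

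**Figure D2:**
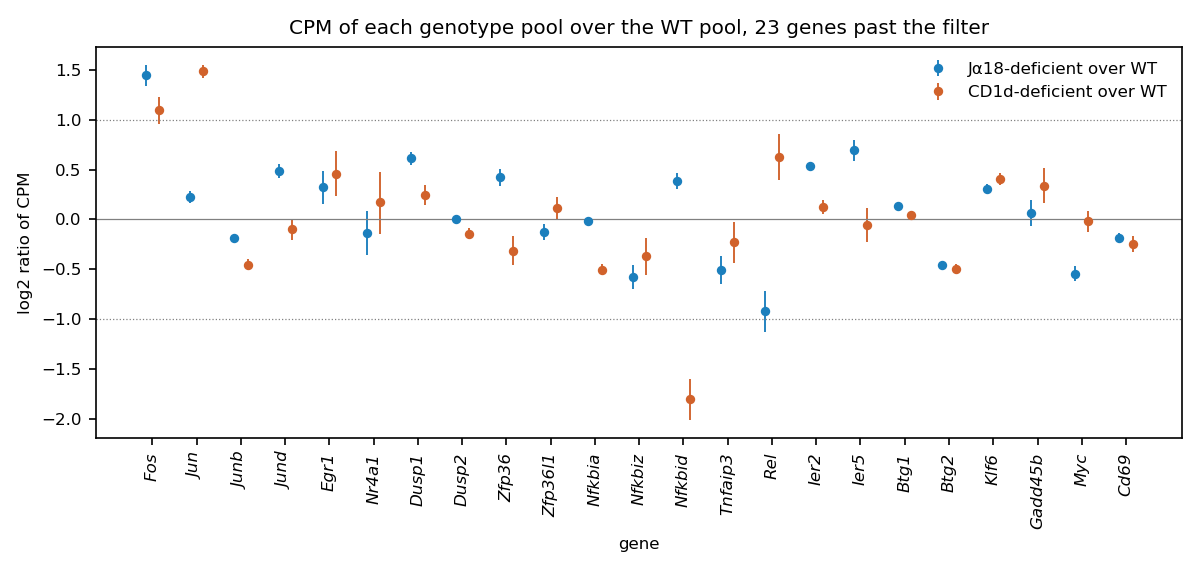
Log2 ratio of CPM of the Jα18-deficient and CD1d-deficient pools over the WT pool for the 23 genes that passed the filter. Bars are exact 95% counting intervals and dotted lines mark a 2-fold ratio. Fos lay above 1 in both pools, Jun above 1 and Nfkbid below -1 in the CD1d-deficient pool.

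The pools also differed in make-up, so the same genes were read within classes of cells. A cell with a UMI of S1pr1, an egress receptor of circulating lymphocytes, was called S1pr1-positive. Among the others, a cell with a UMI of Cd8a or of any of 20 Klra rows (Ly49 receptors) was called Cd8a/Ly49-positive, and the rest negative. The Cd8a/Ly49-positive class made up 29.3%, 68.4% and 81.5% of the thinned WT, Jα18-deficient and CD1d-deficient cells. In it, Fos was at 25.2, 91.6 and 46.3 CPM in the 3 pools, Jun at 120, 150 and 334 CPM, and Nfkbid at 37.2, 64.9 and 14.5. In the negative class, Fos was at 24.2, 18.0 and 23.1 CPM, Jun at 101, 52.9 and 172 CPM, and Nfkbid at 56.2, 86.3 and 13.0. The log2 ratio of Jun in the CD1d-deficient pool was thus 0.77 among negative cells and not past the fold, against 1.47 among Cd8a/Ly49-positive cells. In the few S1pr1-positive cells, Fos was at 32.3, 52.9 and 177 CPM. The excess of Fos over the WT pool was thus found in the Cd8a/Ly49-positive and S1pr1-positive cells and not in the negative cells, of which the CD1d-deficient pool had 28. Nfkbid was low in the CD1d-deficient pool in both classes.

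Transcripts of myeloid genes were highest in the CD1d-deficient pool, like Jun, and lowest in the Jα18-deficient pool, where Fos was highest in CPM. Of 7 myeloid markers (Lyz2, Csf1r, Cd68, Adgre1, Clec4f, Cd14 and Itgax), at least 1 had a UMI in 33.7%, 20.1% and 94.3% of the thinned cells, and their summed level was 95.4, 56.5 and 696 CPM. Lyz2 gave most of it in the WT and CD1d-deficient pools and was in 29.6%, 9.49% and 90.3% of cells. In the Jα18-deficient pool Itgax gave most of it, at 35.0 CPM against 14.7 CPM for Lyz2. Itgax, which NK cells and cytotoxic T cells also express, was in 3.44%, 9.34% and 30.4%. The macrophage genes Csf1r, at 3.28, 2.23 and 9.15 CPM, and Cd68, at 5.48, 4.28 and 13.3 CPM, were also highest in the CD1d-deficient pool, whereas Adgre1, Clec4f and Cd14 were at or under 1.72 CPM in every pool. Of the 4 markers that passed the filter on low counts, all 4 were at least 2-fold higher in the CD1d-deficient than in the WT pool, and in the Jα18-deficient pool Itgax was higher and Lyz2 lower. Within the WT pool, Fos was detected in 16.5% (11.3 to 22.8) of the 176 cells with a myeloid UMI and in 2.88% (1.39 to 5.24) of the 347 cells without. Jun was detected in 34.7% (27.7 to 42.2) and 15.6% (11.9 to 19.8) of them, and Nr4a1 in 8.52% (4.85 to 13.7) and 0.576% (0.0699 to 2.07). The 2 kinds of WT cell had been thinned to the same depth, and their median full depths were 48333 and 52404 UMIs.

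Fos and Jun were the members whose share of WT cells was at least 2-fold higher with a myeloid UMI, 2 of the 20 members in at least 5% of WT cells, against 1.33% of 6175 genes, and 0 were 2-fold lower, against 1.75%. Tnfaip3 was in 10.8% and 6.05% of WT cells with and without a myeloid UMI, and Zfp36l1 in 11.9% and 18.2%. Dusp2 was in 42.0% (34.7 to 49.7) and 54.5% (49.1 to 59.8), at 166 and 341 CPM. The shares of other members were closer, such as Junb in 67.0% and 59.9%, Nfkbia in 56.2% and 49.3%, Btg1 in 81.2% and 81.0%, and Nfkbid in 15.9% and 17.0%. In the Jα18-deficient pool the contrast was smaller. The split was not of the same kind there, since Itgax was in 9.34% and Lyz2 in 9.49% of its cells. In the WT pool these shares were 3.44% and 29.6%. Fos was in 18.9% (12.5 to 26.8) of its 127 cells with a myeloid UMI and in 10.9% (8.31 to 13.9) of its 505 cells without, and Dusp1 in 31.5% (23.5 to 40.3) and 18.4% (15.1 to 22.1). There 0 of 19 members were 2-fold higher, against 1.22% of 6312 genes, and 0 were 2-fold lower, against 2.44%. The CD1d-deficient pool had 13 cells without a myeloid UMI, too few to compare.

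In cells without a myeloid UMI, Fos was at 8.70 CPM in the WT pool and 65.7 in the Jα18-deficient pool, so the ratio between these pools was larger there, at a log2 value of 2.92. Jun was at 61.8 and 95.8 CPM in the same cells, and Nfkbid at 46.1 and 60.7. The CD1d-deficient pool could not be compared with the WT pool free of these transcripts. The part of myeloid transcripts in its Fos, Jun, Nr4a1 and Nfkbid values was not tested.

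**Figure D3:**
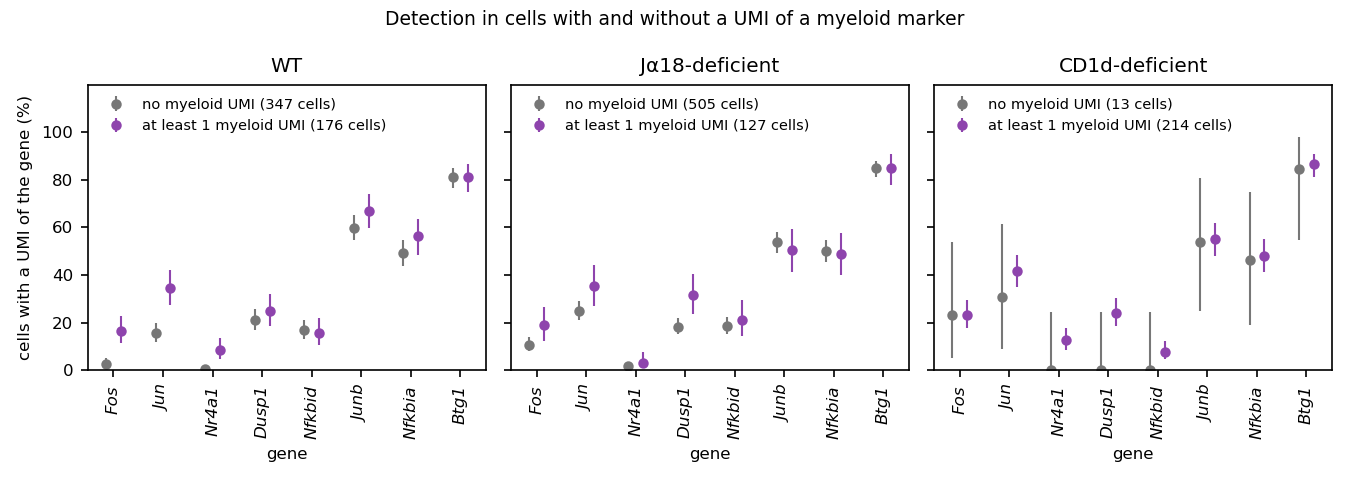
Share of thinned cells with a UMI of 8 genes in cells with and without a UMI of a myeloid marker, by pool, with exact 95% intervals. In the WT pool the intervals of Fos, Jun and Nr4a1 lay apart and those of Nfkbid, Junb, Nfkbia and Btg1 overlapped.

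Whether the members differed between the classes of cells across pools was tested on counts summed per class and pool. The test was the quasi-likelihood test of edgeR with pool as a term, so that n was 3 pools of different genotypes, and p-values were adjusted by Benjamini-Hochberg over 10660 genes, 30 of them members. The contrasts share classes. On simulated counts for the Cd8a/Ly49-positive versus negative contrast (below), edgeR recovered 20% of genes changed 4-fold and 1% of genes changed 2-fold. A lack of calls therefore does not show that the classes are alike. Between Cd8a/Ly49-positive and negative cells 0 members passed an adjusted p of 0.05 in either direction, where 0.113% of all genes were higher and 0.0% lower, and 1 of the 30 members had an unadjusted p under 0.05, as did 274 of all genes. Between S1pr1-positive and negative cells 0 members passed, where 0.0657% of genes were higher and 0.0% lower, and 3 members had an unadjusted p under 0.05, as did 911 of all genes. Between Cd8a/Ly49-positive and S1pr1-positive cells 0 members passed, where 0.00938% were higher and 0.0281% lower, and 5 had an unadjusted p under 0.05, as did 877 of all genes. The limma-voom test called 0 members in each contrast, and DESeq2 called 0, 2 and 2. DESeq2 called more genes of any kind, with 39 higher and 3 lower in the first contrast, 107 and 190 in the second and 149 and 56 in the third. The members' median log2 fold changes were 0.36, 0.17 and 0.33, beside 0.08, -0.22 and 0.32 for all genes.

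Ier2 had the smallest p of any member. On the scale of CPM after TMM scaling, it was at 304, 361 and 416 in the S1pr1-positive sums of the WT, Jα18-deficient and CD1d-deficient pools, and at 150, 170 and 121 in the negative sums. The S1pr1-positive values all lay above the negative values and above the Cd8a/Ly49-positive values of 155, 214 and 165. The log2 fold change over negative cells was 1.30 ± 0.31 (SE, n = 3 pools), with an unadjusted p of 7.4e-04 and an adjusted p of 0.26 in edgeR's test. It passed in DESeq2 at an adjusted p of 0.0059 and not in limma-voom at 0.35. In detection the difference was smaller, and it was not tested: Ier2 was found in 57.1% of the 21 WT, 51.1% of the 47 Jα18-deficient and 57.1% of the 14 CD1d-deficient S1pr1-positive cells, and in 45.8% to 50.1% of negative cells.

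The AP-1 genes did not pass. Fos was at 33.2, 55.0 and 199 CPM in S1pr1-positive and 24.0, 17.4 and 23.3 in negative sums of the same pools, with a log2 fold change of 1.78 ± 0.72 and an adjusted p of 0.56 in edgeR. Jun was at 51.8, 76.4 and 44.5 in S1pr1-positive and 118, 137 and 325 in Cd8a/Ly49-positive sums, with a log2 fold change of 1.51 ± 0.50 for the latter over the former and an adjusted p of 0.50. Jun was thus higher in Cd8a/Ly49-positive than in S1pr1-positive sums in every pool, whereas Fos was higher there in the Jα18-deficient pool alone, at 83.2. Egr1 was at 0.8, 1.5 and 1.6 in S1pr1-positive and 6.5, 16.2 and 22.2 in Cd8a/Ly49-positive sums, with an adjusted p of 0.53. Ccl3, which the class contrasts also left under the threshold, was at 70.3, 78.5 and 153 in Cd8a/Ly49-positive and 7.3, 3.2 and 7.6 in negative sums, a log2 fold change of 3.95 ± 0.83 with an adjusted p of 0.14 in edgeR.

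**Figure D4:**
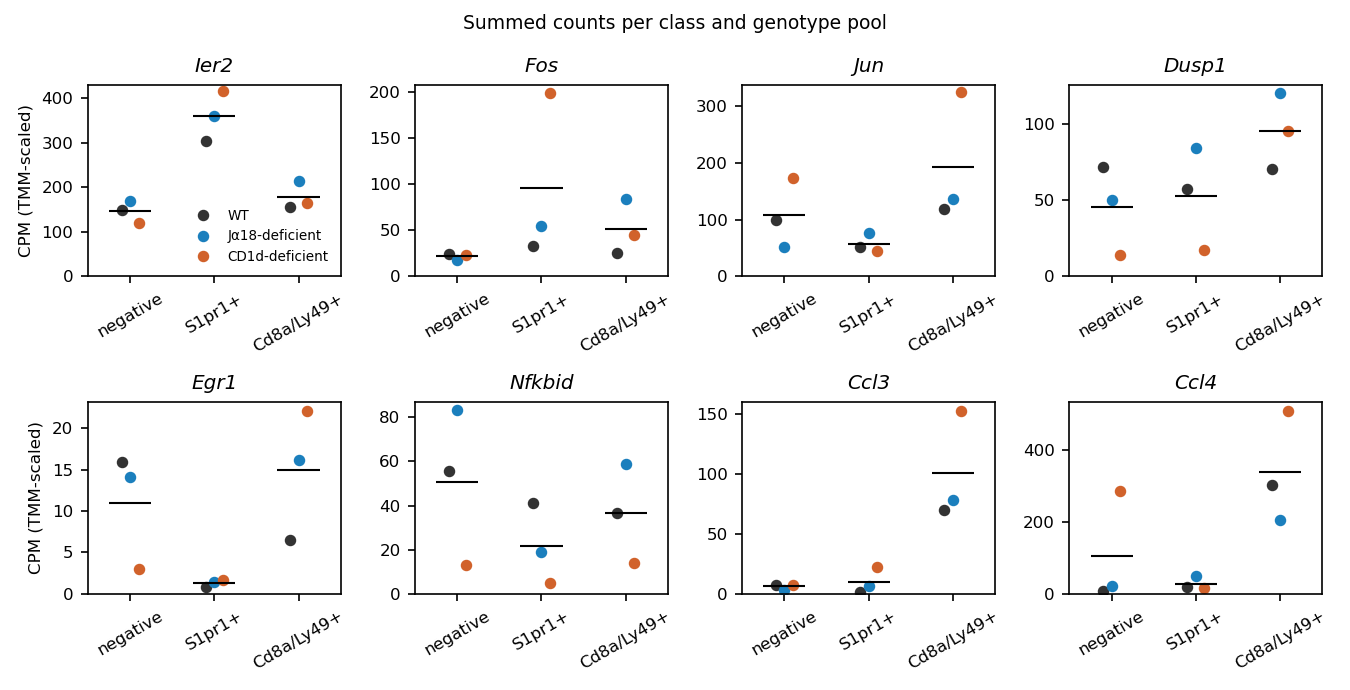
CPM after TMM scaling in the sums of negative, S1pr1-positive and Cd8a/Ly49-positive cells for 6 members and 2 chemokine genes. Each point is 1 pool and the line is the mean of 3 pools. Ier2 was highest in S1pr1-positive cells in every pool, and Jun, Ccl3 and Ccl4 were higher in Cd8a/Ly49-positive than in S1pr1-positive cells in every pool.

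The relation of the members to the effector genes was read in single cells. In thinned cells the 32 members summed to medians of 27, 27 and 28 UMIs, with ranges of 1 to 173, 0 to 232 and 1 to 189, and a cell had a median of 6, 6 and 7 members with a UMI. The SD of the sum was 19.1, 25.2 and 22.7, against 5.54, 5.74 and 5.68 for counting error alone. Btg1, Btg2, Nfkbia, Dusp2 and Junb made up the larger share of it, with Btg1 alone at 17.4%, 20.2% and 19.3%.

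Spearman's rho of the summed members over the 523, 632 and 227 cells was 0.12, 0.08 and 0.16 with Ifng, and 0.02, 0.04 and 0.15 with Ccl3. With Ccl4 it was -0.00, 0.09 and 0.10, and with Il4 it was 0.07, -0.02 and -0.07. These are weak values in sparse counts, in which an unknown number of the points of a pool share a library, and are given as a description. Of 128 pairs of a member and an effector, 116 had a value in every pool, 0 had an absolute rho of 0.2 or more in every pool, and the pair with the highest lowest value was Egr2 with Ifng at 0.16, 0.11 and 0.09. Egr2 had a UMI in 12, 8 and 2 thinned cells of the pools, so that pair rests on few cells. None of the 4 effector genes followed the summed members closely from cell to cell in any pool.

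**Figure D5:**
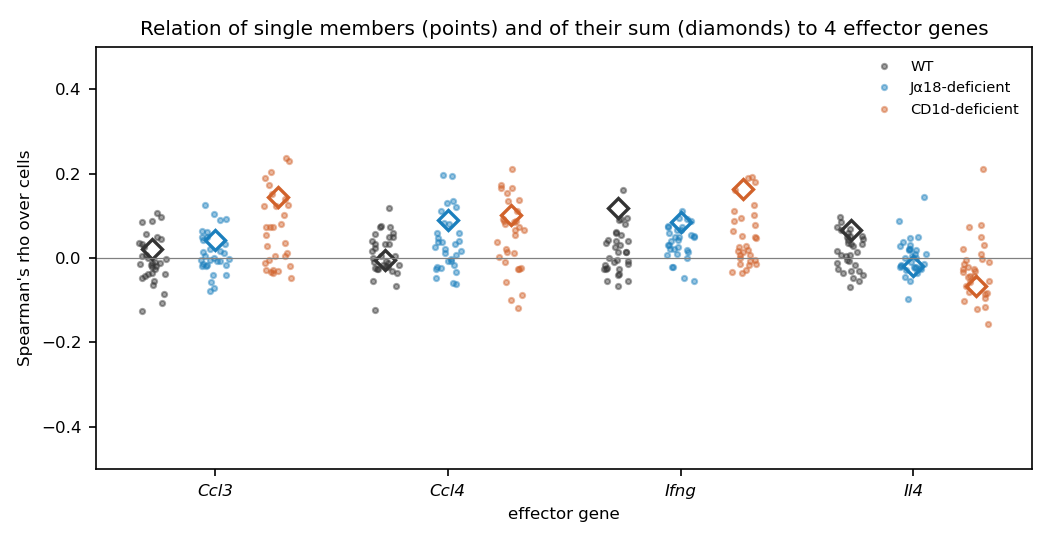
Spearman's rho over the thinned cells of each pool between 4 effector genes and each member (points) or the summed members (diamonds). The diamonds lay between -0.07 and 0.16, and the points between -0.16 and 0.24.

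In shares of cells, Ccl4 and Il4 are described here for the Jα18-deficient pool, and were chosen after their values were seen. The highest rho of any pair was in the CD1d-deficient pool, for Egr2 with Ccl3 at 0.24, where 2 cells had an Egr2 UMI. In the Jα18-deficient pool Ccl4 was detected in 45.6% (34.3 to 57.2) of the 79 cells with a Fos UMI and 21.2% (17.8 to 24.8) of the 553 cells without. It was in 36.8% (29.6 to 44.5) of cells with a Jun UMI and 19.5% (16.0 to 23.4) of those without. The same contrast for Fos was 10.3% (2.87 to 24.2) and 11.6% (8.86 to 14.8) in the WT pool, and 54.7% (40.4 to 68.4) and 42.0% (34.5 to 49.7) in the CD1d-deficient pool, so it was not found in every pool. In the Jα18-deficient pool Ccl4 was also in 41.7% of cells with a myeloid UMI and 19.8% of those without. Itgax was detected there about as often as Lyz2. Of these cells with and without a myeloid UMI, 75.6% and 66.5% were Cd8a/Ly49-positive. The part of the myeloid transcripts and of the Cd8a/Ly49-positive class in the relation was not tested. Il4 was found with Dusp2 in that pool, in 28.4% (23.5 to 33.6) of cells with and 13.8% (10.1 to 18.2) without, whereas in the WT pool it was in 38.8% and 36.9%.

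Members went together weakly. Of 496 pairs, 406 had a rho in every pool, 4 had a rho of at least 0.1 in all 3 pools and 0 had one of at least 0.2. The 4 pairs were Egr1 with Egr2 (0.18, 0.20 and 0.63), Egr2 with Egr3 (0.16, 0.20 and 0.40), Junb with Nfkbia, and Jun with Dusp1. Fos with Jun stood at 0.07, 0.17 and 0.23 in the WT, Jα18-deficient and CD1d-deficient pools. The EGR pairs rest on few cells: over all pools 11 cells had a UMI of at least 2 EGR genes. Among these 11, Ifng was in 54.5% (23.4 to 83.3), Cd69 in 54.5% (23.4 to 83.3) and Nfkbid in 54.5% (23.4 to 83.3), beside 23.6%, 26.6% and 16.0% of the 1371 other cells. Ccl3 was in 27.3% against 11.1%, Ccl4 in 36.4% against 22.7% and Il4 in 36.4% against 24.8%. Dusp2 was in 72.7% against 50.1%, Myc in 27.3% against 18.9% and Nr4a1 in 9.09% against 4.08%. For each of these genes but Nfkbid, the interval of the 11 cells held the share of the other cells. The median full depth of the 11 cells was 159552 UMIs against 51165, although both groups were thinned alike. Of the 11, 7 were negative cells, beside 523 of the 1371 others.

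Among 1976 genes detected in 20% or more of each pool's cells, the 10 that went most with the summed members were D17H6S56E-5, Irf1, Rgs1, Vps37b, Ifng, Clk1, Samd9l, Icam1, Arhgef1 and Cd82. Their lowest rho over the 3 pools ran from 0.12 down to 0.07. Irf1, a factor of the interferon response, was at 0.10, 0.11 and 0.10, and Rgs1, which dampens chemokine receptor signals, at 0.15, 0.09 and 0.16. A list of 35 other early response genes summed to a rho of 0.22, 0.20 and 0.24 with the summed members, against -0.01, 0.03 and -0.02 for 11 heat shock genes, 0.07, 0.03 and 0.10 for 13 NF-κB subunit and inhibitor genes and 0.04, 0.04 and 0.05 for 18 genes of T cell activation.

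Between pools, those lists were read by the same fold of 2, against the shares of all genes given above. Of the 26 other early response genes that passed the filter, 4 were higher and 2 lower with Jα18 deficiency, and 4 were higher and 3 lower with CD1d deficiency. Spry2, an inhibitor of MAP kinase signals, was at 16.5, 61.1 and 39.1 CPM, and Nfil3 at 9.50, 29.3 and 44.2, each lowest in the WT pool. Crem, a cAMP-responsive factor, was at 44.1, 11.4 and 21.3 CPM, highest in the WT pool, and Pim1 was at 24.6, 14.2 and 124. Of 13 NF-κB genes 1 was higher in the Jα18-deficient pool and 0 differed by 2-fold in the CD1d-deficient pool, so the low Nfkbid there had no counterpart in that list. Of 12 genes of T cell activation 2 were higher and 0 lower in the Jα18-deficient pool, and 3 were higher and 2 lower in the CD1d-deficient pool. Of 11 heat shock genes 1 was higher and 1 lower, and 0 higher and 1 lower. In the class contrasts 0 genes of these lists passed the adjusted p of 0.05 in edgeR. These lists were written from textbook knowledge with results of the same data already known.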

How the data were processed

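Single NK1.1+CD3e+ liver cells were sequenced by the authors. The deposited values are UMI counts per gene and cell without normalization, which the authors made by trimming with Cutadapt 1.15, aligning to the mm9 mouse transcriptome with TopHat 2.0.12, removing duplicates by UMI and counting with HTSeq 0.10.0. Whether the counting used strand is not given in the sources used here. Levels were sums of UMIs of all cells of a genotype per 1000000, for 34102694 WT, 60484252 Jα18-deficient and 14536585 CD1d-deficient UMIs. The methods state a lower limit of 10000 transcripts per cell, but 353 cells of the matrix were below it, and these are the cells that thinning (seed 11) left out. No doublet caller was run, since cells were picked singly by hand.

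Class sums were tested with edgeR 4.0.16 (TMM, filterByExpr, terms for class and pool) in R 4.3.3, and DESeq2 1.42.0 and limma 3.58.1 were alternatives. The pools stand in for replicates here and are of different genotypes. Since pool was a term, a p sets a difference between classes against how far it varied between pools. The estimate of that spread was shared by the classes. On simulated counts of 10660 genes for the Cd8a/Ly49-positive versus negative contrast, edgeR recovered 20% of genes changed 4-fold and 1% of genes changed 2-fold, with 1 unchanged gene called. DESeq2 recovered 24% and 2% with 44 unchanged genes called, and limma 20% and 0% with 0. Intervals and correlations were computed with scipy 1.17.1 in Python 3.11.15.

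The members and lists were chosen with earlier results of these data known. All members, Ccl3, Ccl4, Ifng and Il4 were named. From the other lists, up to 3 genes in each direction called in a class contrast were to be named, and 0 were called. The 10 genes outside the list with the highest lowest rho were named as well, among genes in at least 20% of cells of each pool. Pim1, Spry2, Nfil3 and Crem, the motifs searched, the single relations and the pairs shown in the text, and the split by myeloid markers were chosen after their values were seen.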

Additional observations from a re-analysis of the deposited data

How the results depend on the processing

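No paired analysis was possible because the cell names carry no library, so the replicate numbers of the labels could not be joined to cells. The number of members past 2-fold in the Jα18-deficient over the WT pool was 1 of 23, where 11.7% of all genes were past it. It was 2 with TMM (11.1% of all genes), 3 from thinned sums (10.3%), 6 of 32 without a filter on low counts (27.1%), 4 at 1.5-fold (30.2%), 3 in negative cells (22.0%) and 3 in Cd8a/Ly49-positive cells (20.9%). By the mean of the cells' CPM it was 1 (9.60%), which was Rel, lower, and not Fos. Rel was also at least 2-fold lower with TMM, from thinned sums, in negative cells and in cells without a myeloid UMI. Tnfaip3 was lower from thinned sums and in negative cells. The 3 in Cd8a/Ly49-positive cells were all higher. In the CD1d-deficient pool the number was 3 (18.2%), with 9 of 32 unfiltered (32.1%) and 10 in negative cells (42.8%), of which that pool had 28. In cells without a myeloid UMI, an alternative added after the data were seen, the counts were 2 (15.2%) and 12 of 21 (65.8%), the latter from 13 CD1d-deficient cells. Among negative cells the log2 ratio of Fos turned to -0.43 in the Jα18-deficient and -0.07 in the CD1d-deficient pool, and that of Jun in the latter fell to 0.77. Fos in the CD1d-deficient pool was at 0.88 among Cd8a/Ly49-positive cells. Nfkbid stayed below -1 in the CD1d-deficient pool in every alternative run. In the class contrasts, DESeq2 called 2 members (Ier2 and Nr4a3) between S1pr1-positive and negative cells and 2 between Cd8a/Ly49-positive and S1pr1-positive cells, where edgeR called 0. Of all 10660 genes, DESeq2 called 107 higher and 190 lower in the first of these and 149 and 56 in the second. Nr4a3 had UMIs in few sums, and 0 members were called with any pool left out. The mean rho over pools in negative cells was -0.0722 with Ccl3, -0.138 with Ccl4, 0.0203 with Ifng and 0.0719 with Il4, against 0.0698, 0.0623, 0.122 and -0.0068 in all cells. By pool, the rho in the 349, 153 and 28 negative cells was 0.02, 0.00 and -0.24 with Ccl3. With Ccl4 it was -0.05, 0.03 and -0.40, so both negative means rest mainly on the 28 CD1d-deficient cells. The causes of these shifts were not tested. Counting intervals leave out the spread between mice and libraries, and a member under the detection of 10000 UMIs in a cell cannot be told from one that is absent.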
